A study of Homo sapiens with 10 samples.

Results

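Small nucleolar RNAs (snoRNAs) and small Cajal body RNAs (scaRNAs) were followed through 10 total RNA libraries, 9 of extracellular vesicles (EVs) from PC3 cells and 1 of whole cells. PC3 is an epithelial line that was established from human prostate cancer in bone. The members are the genes that GENCODE release 29 types as snoRNA or scaRNA and that reached a raw count sum of at least 50 over the 10 libraries. This rule kept 90 of the 992 annotated genes of these types, in a table of 94946 entries. By name they are 46 box H/ACA snoRNAs (SNORA), 31 box C/D snoRNAs (SNORD, of which 12 belong to the SNORD116 cluster), 10 scaRNAs (SCARNA) and 3 genes that carry only an Rfam family name (RF00012, RF00561 and RF01241). The count sums themselves chose the members, so a gene that was high in the more deeply sequenced libraries reached 50 more easily. The members nearest to the threshold were SNORA9B with 50 counts, SNORD116-5 with 51 and SNORD116-7 with 53. The nearest genes left out were SNORA38B with 48, SNORD49A with 45 and SNORD19 with 43.

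Both snoRNA families work in the nucleolus as the RNA part of small ribonucleoproteins that modify other RNAs. Box C/D snoRNAs pair with ribosomal RNA and guide 2′-O-methylation by fibrillarin, and box H/ACA snoRNAs guide pseudouridylation by dyskerin. The scaRNAs use the same protein sets in Cajal bodies, where they guide modification of spliceosomal snRNAs. Most human snoRNAs are not transcribed from promoters of their own but are cut from spliced introns of a host gene, and they are not polyadenylated. A few, such as U3 and U13, act in the processing or acetylation of pre-ribosomal RNA and have their own promoters.

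The sequences below belong to some of the most abundant members, to RF00012 and to SNORD116 copies. They are the GENCODE release 29 transcripts on GRCh38, written 5′ to 3′ with T for U. In SNORA23 and SCARNA21 the capitals mark the terminal ACA box, found as ACA followed by 3 bases. In the others they mark box C (NTGATGA within the first 25 bases) and box D (CTGA within the last 25 bases). SNORA23 lies in an intron of IPO7 on the + strand, chr11:9428773-9428954, and SCARNA21 in an intron of CHD3 on the + strand, chr17:7906122-7906260.
SNORA23: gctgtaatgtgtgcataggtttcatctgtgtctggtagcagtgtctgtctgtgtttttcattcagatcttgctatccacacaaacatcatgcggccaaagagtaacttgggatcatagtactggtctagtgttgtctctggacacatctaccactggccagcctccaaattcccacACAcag
SCARNA21: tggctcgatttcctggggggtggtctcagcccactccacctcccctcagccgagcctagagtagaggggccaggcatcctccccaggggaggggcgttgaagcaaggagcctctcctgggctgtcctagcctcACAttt
SCARNA6 lies in an intron of ATG16L1 on the + strand, chr2:233288676-233288940.
SCARNA6: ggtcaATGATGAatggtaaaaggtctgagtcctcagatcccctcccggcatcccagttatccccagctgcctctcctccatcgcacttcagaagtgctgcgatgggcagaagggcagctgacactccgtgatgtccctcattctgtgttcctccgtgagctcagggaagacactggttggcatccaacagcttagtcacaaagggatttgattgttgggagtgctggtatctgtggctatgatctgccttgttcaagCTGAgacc
SNORD116-8 (chr15:25070432-25070526) and SNORD116-2 (chr15:25054210-25054304) lie in introns of SNHG14 on the + strand and are 95.8% identical.
SNORD116-8: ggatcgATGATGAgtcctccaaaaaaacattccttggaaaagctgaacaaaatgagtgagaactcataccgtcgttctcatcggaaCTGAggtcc
SNORD116-2: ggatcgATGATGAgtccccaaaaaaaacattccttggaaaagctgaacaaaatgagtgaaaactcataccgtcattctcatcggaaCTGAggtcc
RF00012, named for the Rfam family of U3, lies in an intron of TEX14 on the - strand, chr17:58631641-58631836. It is 74.3% identical over 179 aligned bases to the U3 gene SNORD3B-2, and it has a box D match in its last 25 bases.
RF00012: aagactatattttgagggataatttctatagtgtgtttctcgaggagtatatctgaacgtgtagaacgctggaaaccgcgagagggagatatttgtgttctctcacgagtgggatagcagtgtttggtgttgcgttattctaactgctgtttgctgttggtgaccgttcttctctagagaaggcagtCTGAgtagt

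The vesicles were collected at 3 spins that the labels call 2.8K, 10K and 100K without a unit, here 2.8K EVs, 10K EVs and 100K EVs, with 3 libraries each, and 1 library comes from whole PC3 cells. All cells grew in Dulbecco's medium with 10% fetal bovine serum, L-glutamine and PenStrep, and the sources used here do not say whether the serum was cleared of its own vesicles. The sources also do not say that the 3 libraries of a pellet came from separate cultures. The p-values therefore set a difference only against an estimate of the spread among these samples, which may be a technical spread. Total counts were 10288246 to 14977955 in 2.8K EVs, 7933251 to 10864958 in 10K EVs, 5424964 to 8083438 in 100K EVs and 28735081 in the cells. Levels are given as CPM, counts relative to 1000000 scaled by TMM factors, which make libraries comparable. Of 4 markers of this line, KRT8, KRT18 and VIM were present in all libraries and were lower in 100K EVs than in 2.8K EVs, with log2 fold changes of -1.49, -2.09 and -2.38 (adjusted p of 8.47e-06, 5.21e-07 and 1.41e-06 by edgeR). The epithelial marker EPCAM reached at most 10.7 CPM in a library and was at 0 in 100K replicate 3. The leukocyte markers PTPRC and CD3E were at 0 in all 10, and so was KLK3, a prostate marker that PC3 cells lack. Replicate 1 of 2.8K EVs stood apart: 12.9% of its counts were mitochondrially encoded, against 4.92% and 4.81% in replicates 2 and 3, and the counts of members called are also given without it.

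The H/ACA snoRNAs and the scaRNAs were concentrated in the pellet of the slowest spin, whereas the C/D class differed less between pellets, through SNORD15B for the most part, and its SNORD116 cluster did not follow that order. Since the members were chosen by their counts, the summed shares are a description without a test. The 46 SNORA members made up 0.0533 ± 0.0196% of all counts in 2.8K EVs, 0.0169 ± 0.00768% in 10K EVs and 0.00224 ± 0.000353% in 100K EVs (SD, n = 3 each). They made up 0.0158% in the cell library (95% Wilson interval 0.0153 to 0.0163%, counting error only). For the 10 SCARNA members the shares were 0.0291 ± 0.00973% in 2.8K EVs, 0.0106 ± 0.00121% in 10K EVs and 0.000523 ± 0.000107% in 100K EVs, with 0.00942% in the cells. Every 10K library lay below every 2.8K library, and every 100K library below every 10K library, in both classes. On the CPM scale the class sums of 100K EVs were 0.0444 times those of 2.8K EVs for SNORA and 0.0200 times for SCARNA.

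For the 31 SNORD members the shares were 0.0214 ± 0.00747% in 2.8K EVs, 0.00858 ± 0.00203% in 10K EVs and 0.00575 ± 0.00142% in 100K EVs, with 0.0103% in the cells. The class sum in 100K EVs was 0.301 times that of 2.8K EVs on the CPM scale, and the 100K and 10K libraries overlapped. SNORD15B carried this difference: the other 30 SNORD members summed to 58.6 ± 17.3 CPM in 2.8K EVs, 60.7 ± 7.10 CPM in 10K EVs and 60.1 ± 17.4 CPM in 100K EVs (SD, n = 3 each), with overlapping libraries, and to 28.1 CPM in the cells. That sum was added after the data had been seen, and none like it was made for the other classes. It joins members whose means differed in opposite directions. From 2.8K EVs to 100K EVs the mean of SNORD12C went from 11.6 to 1.31 CPM and that of SNORD3B-2 from 5.11 to 13.2 CPM. The 12 SNORD116 members, orphan C/D snoRNAs of the imprinted Prader-Willi region without a known rRNA target, made up 0.00145 ± 0.00091% in 2.8K EVs, 0.00215 ± 0.000389% in 10K EVs and 0.00218 ± 0.000554% in 100K EVs. The cells held 0.000759%. The SNORD116 sums of the 3 pellets overlapped. In such bulk libraries, fewer vesicles that carry an RNA and less of that RNA per vesicle cannot be told apart.

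**Figure D1:**
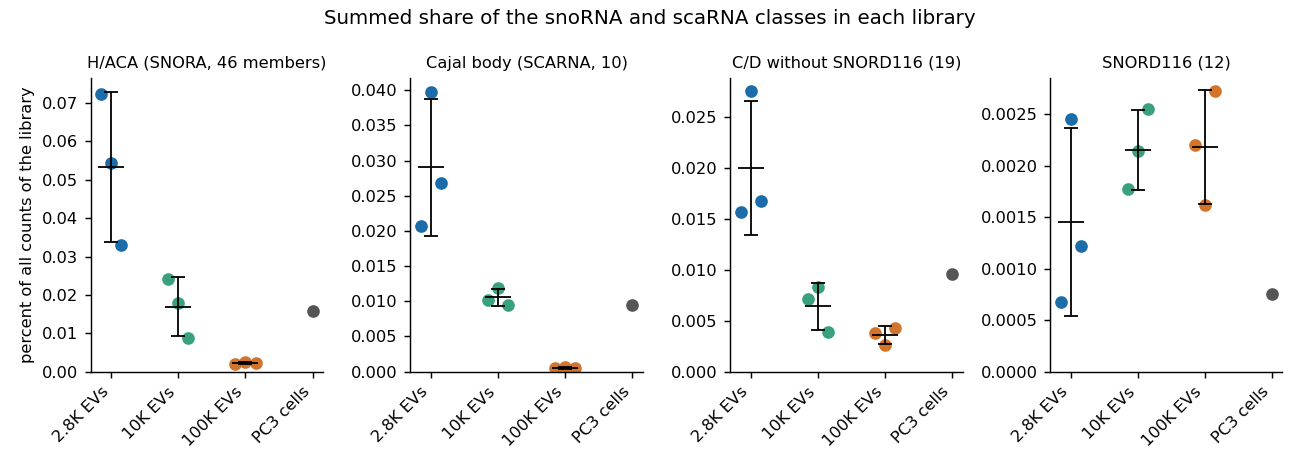
Percent of all counts of a library (vertical axis, linear and starting at 0) held by 4 sets of members. Each point is 1 library of 2.8K EVs, 10K EVs, 100K EVs or PC3 cells, and the bars are the mean ± SD of 3 libraries. SNORA and SCARNA shares stand in the same order of pellets, with 100K EVs near 0, while the SNORD116 shares of the pellets overlap.

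The makeup of the member counts differed between pellets in the same way. In 100K EVs, SNORA held 18.2 ± 5.29% of the member counts, SNORD 45.4 ± 8.70%, SCARNA 4.26 ± 1.44% and the Rfam-named genes, there RF00012 alone, 32.1 ± 8.82% (SD, n = 3). In 2.8K EVs the shares were 50.2 ± 12.9% for SNORA, 20.5 ± 5.03% for SNORD, 28.2 ± 8.35% for SCARNA and 1.08 ± 0.349% for the Rfam-named genes. The SNORA share in 2.8K EVs was highest in replicate 1, with 65.2%, against 43.5% and 42.1% in the other 2 libraries. A few members led the slowest pellet: SNORA23, SCARNA21, SNORD15B and SCARNA6 together held 54.1% of the summed member CPM of 2.8K EVs and 52.6% of that of the cells. The same 4 were the top 4 of 10K EVs, with 42.9%. In 100K EVs the top 6 were RF00012, SNORD3B-2, SNORD46, SNORD116-8, SNORD13 and SNORD116-2, with 61.6%, and no SNORA or SCARNA member was among them.

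Per length, the highest SNORA members over the 9 vesicle libraries were SNORA23 with a mean of 396 CPM per kilobase, SNORA49 with 160.4, SNORA71A with 154 and SNORA22 with 82.1. Among the scaRNAs they were SCARNA21 with 498 CPM per kilobase, SCARNA6 with 166, SCARNA22 with 60.3 and SCARNA1 with 18.7. Among C/D snoRNAs they were SNORD15B with 401, SNORD46 with 65.4, SNORD12C with 62.0 and SNORD116-8 with 49.9. These means pool the pellets, and the order of the C/D members differed between them: SNORD46 had 83.2 CPM per kilobase in 100K EVs and 46.8 in 2.8K EVs, where SNORD12C had 14.7 in 100K EVs and 130 in 2.8K EVs. SNORD15B thus reached a level per length like those of SNORA23 and SCARNA21, while the next C/D member stood about as high as SCARNA22.

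Members were missed more often in 100K EVs. At least 1 count was present for 77, 79 and 74 of the 90 members in the 2.8K libraries, for 75, 73 and 62 in 10K EVs, for 48, 46 and 51 in 100K EVs and for 84 in the cells. At an equal depth of 5424964 counts the expected numbers were 74.7, 78.3 and 73.1 in 2.8K EVs, 73.4, 71.2 and 59.7 in 10K EVs, 45.97, 46 and 49.5 in 100K EVs and 79.6 in the cells. By class, 16 of 46 SNORA, 3 of 10 SCARNA, 4 of 31 SNORD and no SNORD116 member had 0 counts in all 3 100K libraries. Over all classes these were 25 of 90 members, beside 88 of the 15525 genes tested, which had passed a filter that some members did not. The choice of members by count sum favoured genes high in the deeper libraries, and equal depth does not undo that choice. Detection is therefore a description only. A count of 0 allows up to 3 counts, or 0.371 to 0.553 CPM of the raw total in a single 100K library, so low levels there were not detectable at this depth. Some members rested on a single library. RF00561 had all its 99 counts and RF01241 all its 54 counts in 2.8K replicate 1, and SNORD114-21 had all its 56 counts in 2.8K replicate 2.

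**Figure D2:**
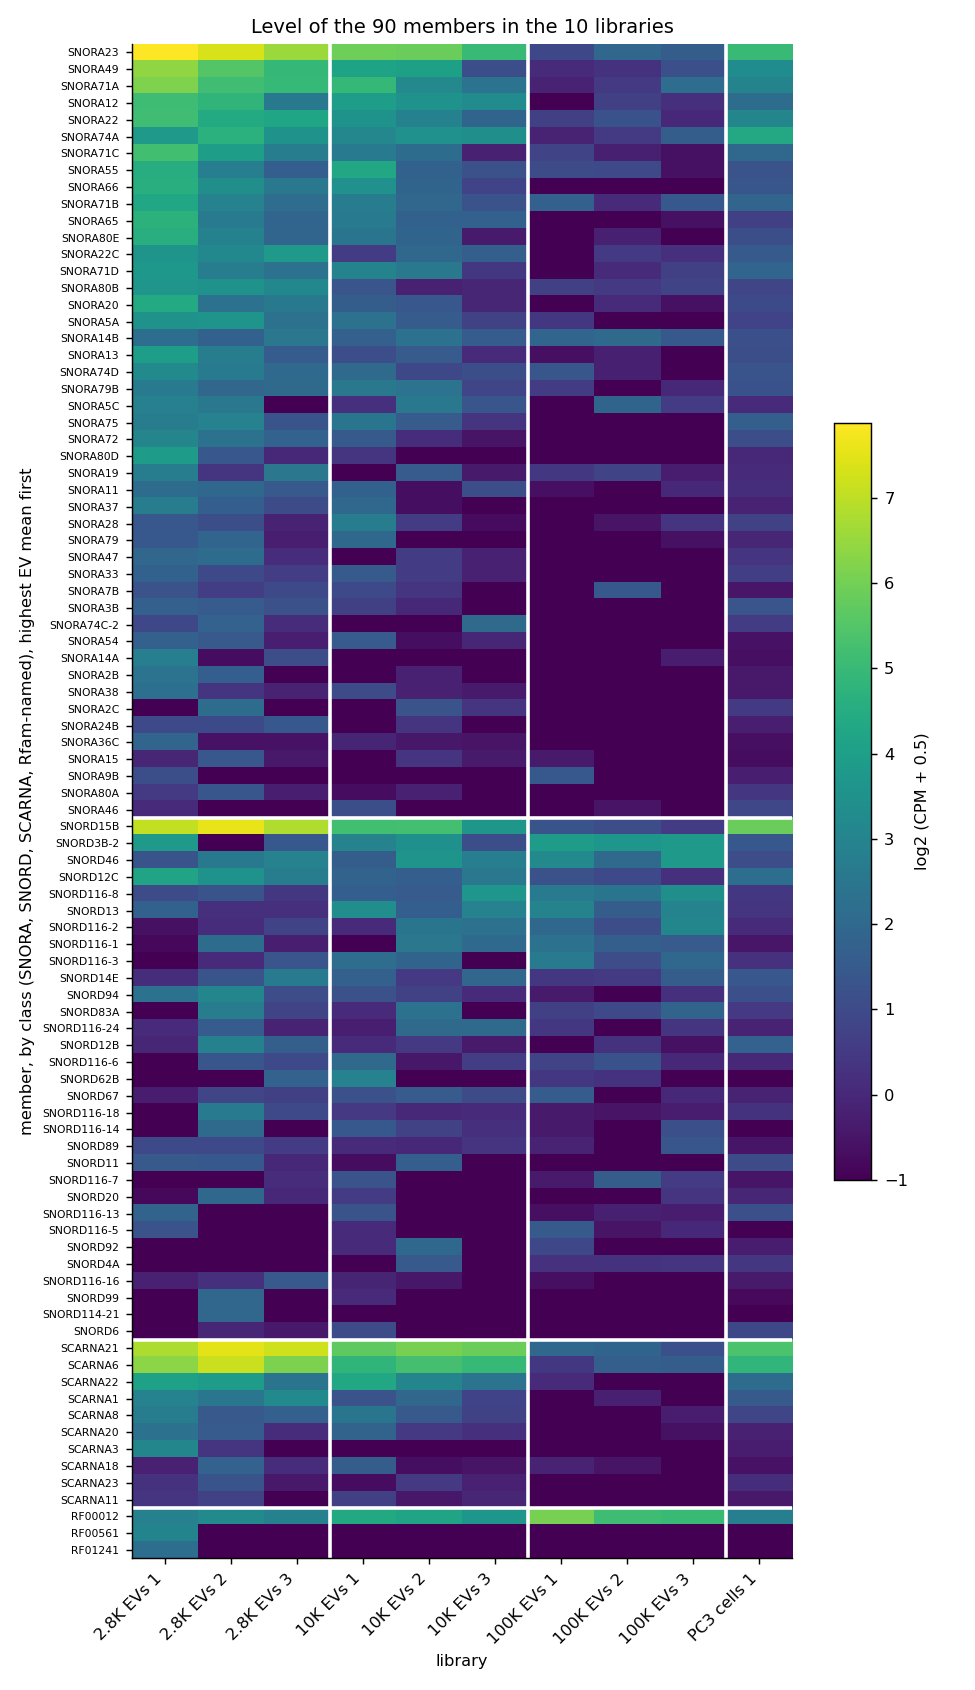
Colour gives the log2 of CPM plus 0.5 for each of the 90 members (rows, by class and then by mean level in vesicles) in each of the 10 libraries (columns). The SNORA and SCARNA rows darken towards 100K EVs, RF00012 brightens, and the SNORD rows differ among themselves. White lines separate classes and groups.

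Of the 90 members, 22 were lower and 1 was higher in 100K EVs than in 2.8K EVs, 37 did not pass and 30 were too low to be tested (edgeR's quasi-likelihood test, adjusted p below 0.05 over all 15525 genes tested). In the background of all genes tested, 13.8% were lower and 12% higher. By class, 16 of 46 SNORA, 4 of 10 SCARNA and 2 of 31 SNORD members were lower, and the higher one was RF00012. The tested members had a median log2 fold change of -4.94 for SNORA, -5.67 for SCARNA and -0.23 for SNORD, against -0.06 for all genes. The last 2 values are near 0 and changed sign with the setting: the SNORD median ranged from -0.87 without a filter on low counts to 0.75 without 2.8K replicate 2, and that of all genes from -0.12 without 100K replicate 2 to 0.12 with the replicate block. A member passed the count filter through any pellet where it was high, so these medians describe only the members that could be tested. All 3 100K libraries lay below all 3 2.8K libraries for 47 members (40 of them tested), 35 of them SNORA and 7 SCARNA. They lay above them for 4 (3 tested). Among all genes tested, 20.8% lay below and 23.8% above. Without 2.8K replicate 1 the count was 20 members, 18 lower and 2 higher. Counts without 1 library ranged from 15 (without 100K replicate 3) to 25, and DESeq2 called 35.

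Of the scaRNAs that passed, SCARNA21, SCARNA6 and SCARNA1 guide modification of spliceosomal snRNAs. SCARNA21, a guide of pseudouridylation in U12 snRNA, had 3.51, 3.12 and 1.76 CPM in 100K EVs, against 109, 181 and 149 CPM in 2.8K EVs. The groups were far apart, with a log2 fold change of -5.72 (SE 0.35, adjusted p = 1.02e-08 by edgeR). SCARNA6, a guide of 2′-O-methylation in U5 snRNA, had 0.843, 2.75 and 2.57 CPM in 100K EVs, against 81.3, 143.9 and 69.5 CPM in 2.8K EVs. It too was lower in all 3 100K libraries, with a log2 fold change of -5.62 (SE 0.47, adjusted p = 1.07e-07 by edgeR). SCARNA22, which lies in an intron of NSD2, had 0.562, 0 and 0 CPM in 100K EVs, against 16.5, 14.4 and 4.80 CPM in 2.8K EVs (log2 fold change -5.81, SE 1.25, adjusted p = 0.00178 by edgeR). SCARNA1, a guide for U2 snRNA, was detected in 1 of the 3 100K libraries, with 0.367 CPM, against 7.12, 5.09 and 8.995 CPM in 2.8K EVs. Its edgeR adjusted p of 0.0242 became as high as 0.126 when 1 library was left out (2.8K replicate 3, 100K replicate 1 or 100K replicate 3 ended the call).

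Among the H/ACA snoRNAs, SNORA23 was the most abundant, with 1.405, 3.30 and 2.57 CPM in 100K EVs, against 235, 164 and 93.6 CPM in 2.8K EVs. The lowest 2.8K library was still far above the highest 100K library, and the log2 fold change was -6.12 (SE 0.45, adjusted p = 4.34e-08 by edgeR). SNORA49 had 0.562, 0.734 and 1.76 CPM in 100K EVs, against 83.4, 45.01 and 29.9 CPM in 2.8K EVs (log2 fold change -5.70, SE 0.81, adjusted p = 4.10e-05 by edgeR). SNORA71A, SNORA22 and SNORA12 were lower, with log2 fold changes of -4.70 (SE 0.83), -4.44 (SE 0.78) and -5.31 (SE 0.97), and the libraries of the 2 pellets did not overlap for any of them. SNORA74A, also known as U19, was lower, with a log2 fold change of -3.67 (SE 0.83, adjusted p = 0.0027 by edgeR). SNORA22 is 98.5% identical to SNORA22C, which was lower as well, so their counts could be split between the copies.

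SNORA66, SNORA75 and SNORA72 were at 0 in every 100K library. SNORA66, a guide cut from an intron of the ribosomal protein gene RPL5, had 23.3, 9.94 and 5.397 CPM in 2.8K EVs, which makes it at least 80.6-fold lower in 100K EVs against a floor of 3 counts over the 3 libraries (adjusted p = 0.000724 by edgeR). SNORA75, in the nucleolin gene NCL, was at least 33.9-fold lower, with 6.28, 7.12 and 1.97 CPM in 2.8K EVs (adjusted p = 0.0138 by edgeR). SNORA72, in RPL30, was at least 31.9-fold lower, with 7.73, 4.49 and 2.998 CPM in 2.8K EVs (adjusted p = 0.0215 by edgeR). Leaving out any of the 100K libraries ended the call for SNORA75 and SNORA72, whose adjusted p then reached 0.0649 and 0.0982, but not for SNORA66. SNORA65 and SNORA80E, with 1 or 2 counts in a single 100K library, were lower, with log2 fold changes of -7.49 (SE 1.59) and -6.51 (SE 1.72), and the call for SNORA80E was lost without 2.8K replicate 1 (adjusted p = 0.0546 by edgeR). The other called SNORA members were SNORA5A, SNORA13, SNORA20, SNORA22C and SNORA71C, between -4.44 and -5.50 on the log2 scale, and they are named after their values were seen.

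SNORA14B was singled out after its values were seen. It had 3.23, 3.67 and 2.24 CPM in 100K EVs, against 4.13, 2.87 and 5.31 CPM in 2.8K EVs. The libraries overlapped, and the log2 fold change of -0.45 (SE 1.23) did not pass (adjusted p = 0.855 by edgeR). It was the tested SNORA member with the fold change nearest to 0.

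Of the C/D snoRNAs, SNORD15B, a guide of 2′-O-methylation in the large-subunit rRNA, behaved like SNORA23. It had 1.97, 1.65 and 0.962 CPM in 100K EVs, against 133, 191 and 113 CPM in 2.8K EVs (log2 fold change -6.58, SE 0.49, adjusted p = 4.34e-08 by edgeR). SNORD12C had 1.83, 1.47 and 0.641 CPM in 100K EVs, against 17.5, 11.01 and 6.17 CPM in 2.8K EVs. Its log2 fold change of -3.14 (SE 1.05, adjusted p = 0.0336 by edgeR) lost its call in 8 of 17 alternatives, with adjusted p up to 0.164; these include the fits without 2.8K replicate 1 or 2 and without any 1 of the 100K libraries. SNORD46, another guide for the large-subunit rRNA, had 8.99, 3.67 and 13.3 CPM in 100K EVs, against 1.99, 5.51 and 7.11 CPM in 2.8K EVs. These values overlapped, and the log2 fold change of 0.80 (SE 0.91) did not pass (adjusted p = 0.604 by edgeR).

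**Figure D3:**
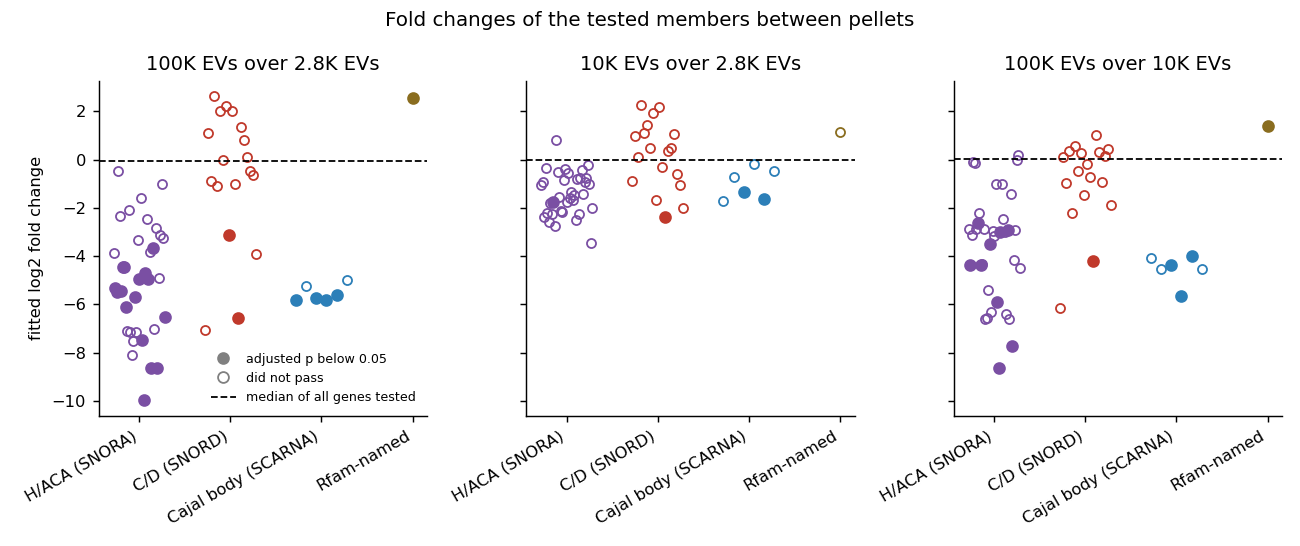
Fitted log2 fold change (vertical axis) of the 60 tested members in 3 comparisons of pellets, by class. Filled points passed an adjusted p of 0.05, open points did not, and the dashed line is the median of all 15525 genes tested. SNORA and SCARNA points lie below the line in 100K EVs over 2.8K EVs, SNORD points lie on both sides, and RF00012 lies above.

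RF00012 was the only member that was higher in 100K EVs when all vesicle libraries were fitted. It had 66.3, 34.0 and 32.1 CPM in 100K EVs, against 6.74, 8.74 and 6.94 CPM in 2.8K EVs. All 3 100K libraries lay above all 3 2.8K libraries, and the log2 fold change was 2.54 (SE 0.45, adjusted p = 0.000306 by edgeR). The call held under all 17 alternatives, with adjusted p up to 0.0102. Without 2.8K replicate 1, another member was higher too. A pair of genes with their own promoters, singled out after their values were seen, had point estimates on the same side. SNORD3B-2, a copy of U3, which takes part in cleavage of pre-ribosomal RNA, had 14.3, 12.1 and 13.1 CPM in 100K EVs, against 13.1, 0 and 2.23 CPM in 2.8K EVs, and its log2 fold change of 1.35 (SE 1.19) did not pass (adjusted p = 0.477 by edgeR). SNORD13, or U13, which guides acetylation of the small-subunit rRNA, had 7.44, 2.57 and 7.38 CPM in 100K EVs, against 2.91, 0.658 and 0.685 CPM in 2.8K EVs, and its log2 fold change of 2.01 (SE 1.18) did not pass either (adjusted p = 0.246 by edgeR). The U3 genes are near-identical copies: SNORD3A and SNORD3B-1 had 32 and 31 counts over all libraries and SNORD3B-2 had 691, and the sources used here do not say how reads shared between copies were counted.

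**Figure D4:**
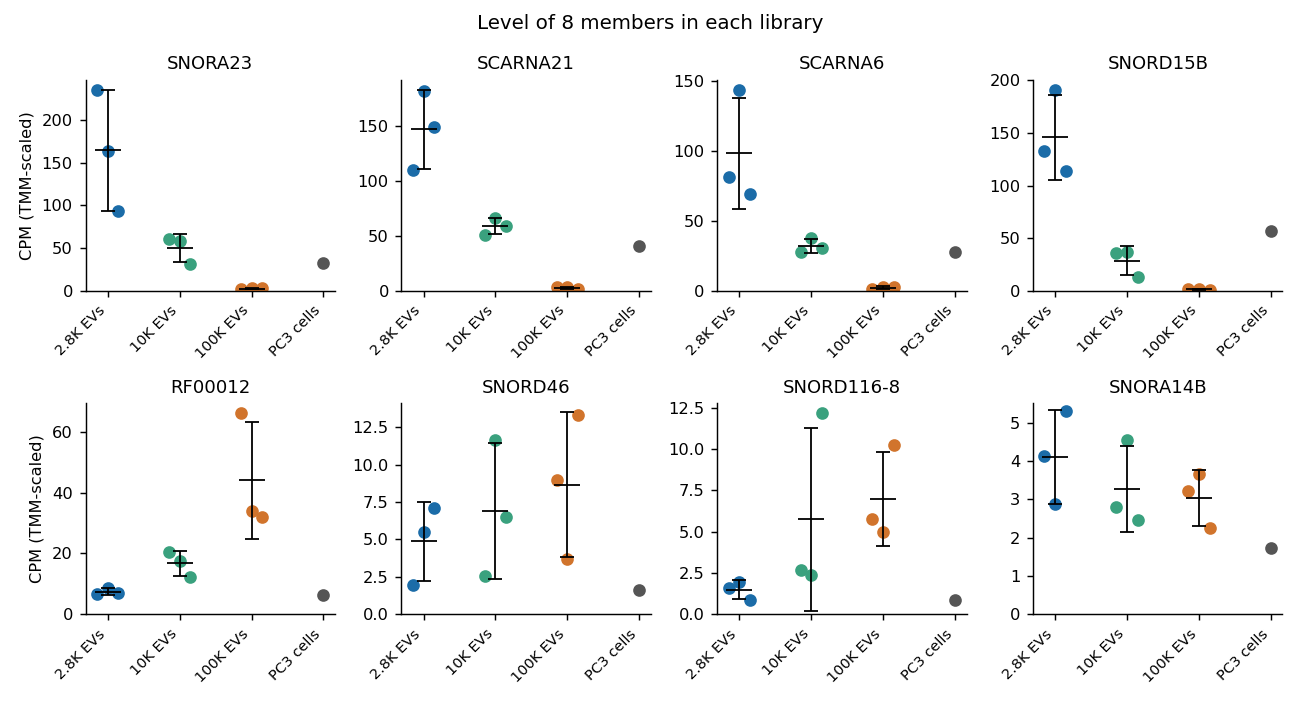
CPM (vertical axes, linear and starting at 0) of 8 members in each library of 2.8K EVs, 10K EVs, 100K EVs and PC3 cells. Points are libraries and bars are the mean ± SD of 3 libraries. SNORA23, SCARNA21, SCARNA6 and SNORD15B have 100K libraries close to 0, RF00012 has its highest values in 100K EVs, and SNORD46 and SNORA14B overlap between pellets.

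The intermediate spin lay between the other pellets for most H/ACA snoRNAs and scaRNAs. Group means stood in the order 2.8K EVs, 10K EVs, 100K EVs from high to low for 41 of 46 SNORA, 9 of 10 SCARNA and 11 of 31 SNORD members, beside 25.4% of all genes tested. In the opposite order, they stood for no SNORA or SCARNA member, for 7 SNORD members and for RF00012, beside 26.1% of all genes tested. These member counts include members too low to be tested, and the choice by count sum favoured genes high in the deeper libraries. The shares of all genes are therefore not a matched background. Between 10K EVs and 2.8K EVs, 4 members were lower and none was higher (edgeR, adjusted p below 0.05), beside 2.22% of all genes that were lower and 4.15% that were higher. These were the 4 most abundant ones. All 10K libraries lay below all 2.8K libraries for 21 members (20 of them tested), 15 of them SNORA, beside 9.71% of all genes tested. They lay above them for 3, all tested, beside 11.7%. SNORD15B had 35.7, 36.9 and 12.6 CPM in 10K EVs and a log2 fold change of -2.38 (SE 0.38, adjusted p = 0.000589 by edgeR). SNORA23 had 60.4, 58.0 and 30.8 CPM in 10K EVs and a log2 fold change of -1.74 (SE 0.35, adjusted p = 0.00507 by edgeR). Both held in every alternative.

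SCARNA6 with -1.63 (SE 0.37, adjusted p = 0.0118 by edgeR) and SCARNA21 with -1.34 (SE 0.28, adjusted p = 0.00635 by edgeR) were also lower in 10K EVs than in 2.8K EVs. SCARNA21 missed the threshold without 2.8K replicate 2 (adjusted p = 0.0551), and SCARNA6 without that library or without 10K replicate 1 or 3 (adjusted p up to 0.114). The count was 2 without 2.8K replicate 2, and 10 with a bias-adjusted quasi-likelihood fit that was added after the data had been seen. Leaving out 2.8K replicate 1 kept the count at 4, as it kept the 14 given next for 100K EVs against 10K EVs.

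Between 100K EVs and 10K EVs, 13 members were lower and 1 was higher, beside 7.23% of all genes lower and 3.7% higher (edgeR, adjusted p below 0.05). The lower ones were 9 SNORA, 3 SCARNA and SNORD15B. All 100K libraries lay below all 10K libraries for 29 members (24 of them tested) and above them for 2, both tested, beside 16.7% and 19.2% of all genes tested. SCARNA21 had 50.7, 65.7 and 59.1 CPM in 10K EVs and a log2 fold change of -4.38 (SE 0.34, adjusted p = 1.42e-06 by edgeR). SNORA23 had the same log2 fold change of -4.38 (SE 0.43, adjusted p = 6.30e-06 by edgeR), SNORD15B one of -4.20 (SE 0.46, adjusted p = 1.39e-05 by edgeR) and SCARNA6 one of -3.98 (SE 0.44, adjusted p = 1.74e-05 by edgeR). RF00012 was the higher one, with 20.5, 17.6 and 12.3 CPM in 10K EVs and a log2 fold change of 1.39 (SE 0.43, adjusted p = 0.044 by edgeR), but leaving out any 1 of these 6 libraries ended the call. The count was 8 without 100K replicate 1, 9 without 100K replicate 2 and 6 with the bias-adjusted fit. Of the 22 members lower in 100K EVs than in 2.8K EVs, 4 were lower in all 3 comparisons, 9 were also lower than in 10K EVs, and 9 passed in that comparison alone.

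SNORD116 copies were detected in all 10 libraries, and none of the 12 passed in any of the 3 pellet comparisons with edgeR, where 7 could be tested. At an unadjusted p below 0.05 the count was also 0, and DESeq2 called 0. SNORD116-8 had 1.61, 1.98 and 0.857 CPM in 2.8K EVs, 2.68, 2.40 and 12.2 CPM in 10K EVs, 5.76, 4.96 and 10.3 CPM in 100K EVs and 0.861 CPM in the cells. Its 100K libraries all lay above its 2.8K libraries, with a log2 fold change of 2.21 (SE 1.15) that did not pass (adjusted p = 0.18 by edgeR). SNORD116-2, singled out after its values were seen, had 3.51, 1.65 and 7.86 CPM in 100K EVs, against 0.153, 0.599 and 1.29 CPM in 2.8K EVs, and a log2 fold change of 2.63 (SE 1.6, adjusted p = 0.267 by edgeR). The other 10 members overlapped between 100K EVs and 2.8K EVs, except SNORD116-16, whose 100K libraries all lay below. The 66 pairs of SNORD116 members are 77.1 to 100% identical, and SNORD116-5 and SNORD116-7 have the same sequence, so reads may be split between the copies and single values are uncertain. The annotation holds 30 SNORD116 genes, and all 12 members lie on chromosome 15 in introns of SNHG14.

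The median spread between replicates of a pellet was wider for the members than for all genes tested, without matching for level. Among SNORA members with a mean of at least 1 CPM, the median coefficient of variation was 67.6% in 2.8K EVs, 76.4% in 10K EVs and 63.3% in 100K EVs. For C/D members it was 97.4%, 70.6% and 55.8%, and for scaRNAs 54.8%, 59.3% and 42.0%, in the same order of pellets. All genes tested had 43.9%, 34.7% and 21.3%. Since levels were not matched, these medians do not set the members apart from other genes of like level. The most abundant members spread less than their class medians in 2.8K EVs. There SNORA23 had 164 ± 70.9 CPM, SCARNA21 147 ± 36.1, SNORD15B 146 ± 40.4 and SCARNA6 98.2 ± 40.0 (SD, n = 3). SNORA49 spread widely in 10K EVs, with 17.1, 16.2 and 1.71 CPM. Its lowest 10K library overlapped the 100K libraries, although the difference between these pellets passed (log2 fold change -3.51, SE 0.76, adjusted p = 0.00544 by edgeR).

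Against the single cell library, the slowest pellet lay above and the fastest below for most H/ACA snoRNAs and scaRNAs. These comparisons were fitted on all 10 libraries (22370 genes, 90 members tested), and the lone cell library is assumed to vary like the vesicle libraries. They share that library, so their values are given side by side. In 2.8K EVs, 2 members were higher and none was lower than in cells, beside 1.54% of all genes higher and 0.693% lower (edgeR, adjusted p below 0.05). SNORA23 had 32.1 CPM in cells (95% exact Poisson interval 30.3 to 34.1) and was higher in 2.8K EVs by 2.35 on the log2 scale (SE 0.49, adjusted p = 0.00022 by edgeR). SCARNA21 had 40.4 CPM in cells (interval 38.3 to 42.5) and was higher by 1.86 (SE 0.47, adjusted p = 0.00712 by edgeR). Of the 46 SNORA members, 31 had all 2.8K libraries above the cell library, as had 7 of 10 SCARNA and 6 of 31 SNORD members, beside 13.5% of all genes tested. They all lay below it for 4 of the 90 members, beside 30.2% of all genes tested. Without 2.8K replicate 1 the count was 3, without replicate 3 it was 4, and the bias-adjusted fit gave 7.

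In 10K EVs, no member passed against the cells (edgeR, adjusted p below 0.05), beside 4.43% of all genes called, 2.82% higher and 1.6% lower. DESeq2 called 0 as well, and 1 member, SNORD15B, had an unadjusted p below 0.05. The count was also 0 without 2.8K replicate 1. All 3 libraries lay above the cell library for 16 members and below it for 8, beside 16.3% and 36.1% of all genes tested, and the SNORA, SNORD and all-member sums of 10K EVs overlapped the cell value. In 100K EVs, 9 members were lower and 1 was higher than in cells, beside 5.46% of all genes lower and 4.59% higher. The lower ones were SNORD15B, SCARNA21, SCARNA6, SCARNA22, SNORA23, SNORA49, SNORA66, SNORA71A and SNORA74A. SNORD15B had 56.9 CPM in cells (interval 54.5 to 59.5) and was lower in 100K EVs, with a log2 fold change of -5.21 (SE 0.45, adjusted p = 1.40e-28 by edgeR). SNORA74A had 13.2, 24.8 and 11.3 CPM in 2.8K EVs, 8.05, 10.9 and 10.3 CPM in 10K EVs and 20.3 CPM in cells (interval 18.8 to 21.8). Its cell value lay above all 10K libraries and above 2 of the 3 2.8K libraries. SNORA66 was at least 13.1-fold lower in 100K EVs than in cells. RF00012 had 6.40 CPM in cells (interval 5.59 to 7.30) and was higher in 100K EVs by 2.78 on the log2 scale (SE 0.85, adjusted p = 0.0136 by edgeR), a call that was lost without 100K replicate 1 (adjusted p = 0.2). SNORA71A lost its call in 12 of 15 alternatives. SNORA66 lost it in 4 (without 100K replicate 1 or 3, with only the libraries compared and with the bias-adjusted fit; adjusted p up to 0.467), SCARNA22 in 4 (without 10K replicate 1, 100K replicate 2 or 100K replicate 3 and with the bias-adjusted fit; up to 0.311) and SNORA49 with the bias-adjusted fit (0.112). Without 2.8K replicate 1 the count was 12. It was 16 when only the libraries compared were fitted and 6 with the bias-adjusted fit.

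C/D members lay on both sides of the cell library in 100K EVs, and those above it did not pass in the main fit. Every 100K library lay above the cell library for 10 of 31 SNORD members, 6 of them SNORD116, beside 24.9% of all genes tested. The same held for 1 of 46 SNORA members and for no SCARNA member. The median log2 fold change of the tested SNORD members was 0.57 in the main fit and 1.30 with only the libraries compared (21 tested). It was 0.00 without 100K replicate 1 and 0.09 without 100K replicate 3. More SNORD members passed with only the libraries compared, while as many SNORA and SCARNA members passed as in the main fit. The 100K libraries all lay below the cell library for 58 of the 90 members, 38 of them SNORA and 11 SNORD, beside 40.8% of all genes tested. SNORD46 had 1.64 CPM in cells and a log2 fold change of 2.40 (SE 1.75, adjusted p = 0.641 by edgeR). SNORD116-8 had a log2 fold change of 3.01 (SE 2.26, adjusted p = 0.66 by edgeR).

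In most pairs of member and host gene that could be tested, the member had the lower fold change between 100K EVs and 2.8K EVs. Of the 90 members, 86 lie within 67 host genes on the same strand, 83 of them in an intron, and 62 have a protein-coding host. Intronic members lie outside the GENCODE exons of their hosts, but the annotation used for counting is not known, and overlaps with the long noncoding catalogue entries of the table were not checked. Between 100K EVs and 2.8K EVs, 17 of the 67 hosts were higher and 10 lower, 34 did not pass and 6 were not tested (edgeR, adjusted p below 0.05), beside 12% of all genes higher and 13.8% lower; the median of the tested hosts was 0.07 on the log2 scale. For the 22 lower members the host was higher for 5, lower for 1, did not pass for 15 and was not tested for 1. The member's fold change lay below the host's in 43 of 48 pairs that were tested on both sides, where many members passed the count filter through 2.8K EVs. RPS3, the host of SNORD15B, averaged 2167 CPM in 100K EVs and 970.1 CPM in 2.8K EVs, with a log2 fold change of 1.14 where SNORD15B had -6.58. RPL5, the host of SNORA66, was higher by 0.55 (adjusted p = 0.037 by edgeR), and NSD2, the host of SCARNA22, by 1.85.

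The hosts of the other leading members did not pass. IPO7, an import receptor gene and host of SNORA23, had a log2 fold change of 0.23, CHD3, the host of SCARNA21, of 0.52, and ATG16L1, the host of SCARNA6, of -0.15. TBRG4, the host of SNORA5A, was the one host that was lower together with its member, with a log2 fold change of -1.09 (adjusted p = 0.03 by edgeR). TEX14, the host of RF00012, was at 1.08 CPM in 100K EVs and 5.26 CPM in 2.8K EVs, and its log2 fold change of -2.29 did not pass (adjusted p = 0.323 by edgeR). SNHG14, the host of all 12 SNORD116 members, had 0 counts in all libraries, and the MATR3 gene that hosts SNORA74A averaged 0 CPM in both pellets. The annotation lists another gene named MATR3 that overlaps it.

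**Figure D5:**
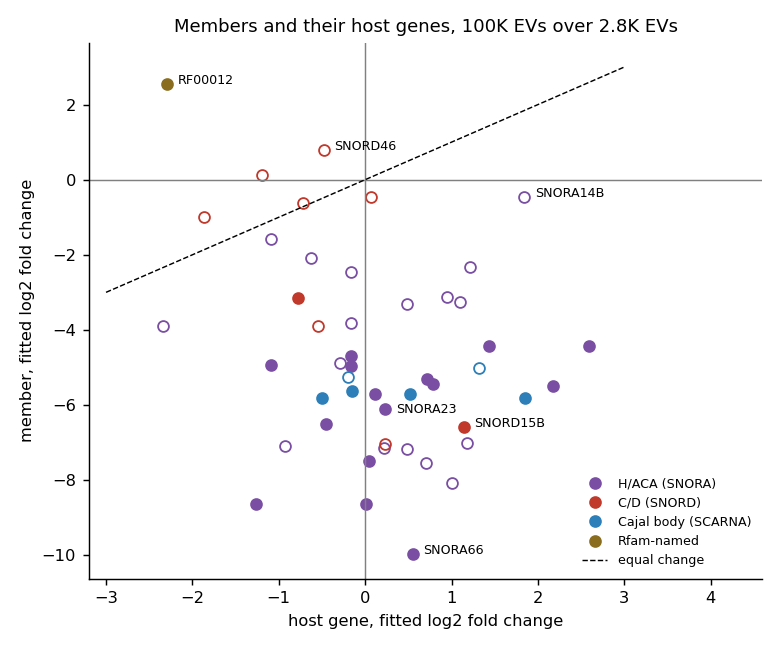
Fitted log2 fold change between 100K EVs and 2.8K EVs of a member (vertical axis) and of its host gene (horizontal axis) for the 48 pairs tested on both sides. Filled points are members that passed and open points are members that did not, colours give the class, and the dashed line marks equal change. Most points lie below the line, with hosts on both sides of 0, and RF00012 lies above it.

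The mRNAs of the proteins that work with these RNAs were called in both directions. Of 26 genes for core, assembly, Cajal body and nucleolar proteins, 3 were higher and 6 lower in 100K EVs than in 2.8K EVs and 17 did not pass (edgeR, adjusted p below 0.05; list chosen with earlier results of these data known), beside 12% of all genes higher and 13.8% lower, with a median log2 fold change of -0.26. Of the H/ACA core, DKC1, which encodes the pseudouridine synthase dyskerin, had 199.8 CPM in 100K EVs and 169.6 CPM in 2.8K EVs (means; log2 fold change 0.22, adjusted p = 0.51 by edgeR). NHP2 was lower, with a log2 fold change of -1.64 (SE 0.23, adjusted p = 3.97e-05 by edgeR) as was NOP10, with -1.78 (SE 0.51, adjusted p = 0.0149 by edgeR), while GAR1 had a log2 fold change of 0.00 (SE 0.87). Of the C/D core, NOP56 was lower, with a log2 fold change of -1.13 (SE 0.23, adjusted p = 0.00118 by edgeR). FBL, which encodes the methyltransferase fibrillarin, NOP58 and SNU13 had -0.23, 0.23 and -0.28 and did not pass.

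Among the assembly factors, ZNHIT6, a C/D snoRNP assembly protein, was higher in 100K EVs by 2.22 (SE 0.25, adjusted p = 3.42e-06 by edgeR) and NOLC1, a nucleolar and Cajal body phosphoprotein gene, by 0.65. RUVBL1, RUVBL2 and PIH1D1 of the chaperone complex for assembly were lower, with log2 fold changes between -1.06 and -1.91. The nucleolar protein gene NPM1 was higher by 0.64 and none of the 6 Cajal body genes passed. 10K EVs differed from 2.8K EVs by 1 of the 26, ZNHIT6, beside 6.38% of all genes called, and 100K EVs from 10K EVs by 6, all lower, beside 10.9% of all genes called. Against the cells, none of the 26 passed in 2.8K EVs with edgeR (1 at an unadjusted p below 0.05 and 0 with DESeq2), beside 2.23% of all genes called, 2 were higher in 10K EVs, beside 2.82% higher, and 2 were higher and 4 lower in 100K EVs, beside 4.59% higher and 5.46% lower.

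Other RNA groups moved with the members in part. Mitochondrially encoded RNA made up 12.9, 4.92 and 4.81% of counts in 2.8K EVs, 1.04, 0.996 and 0.826% in 10K EVs, at most 0.008% in 100K EVs and 2.88% in the cells. The nuclear long RNAs NEAT1, KCNQ1OT1 and MALAT1 had their lowest means in 10K EVs. NEAT1 averaged 643.7 CPM in 2.8K EVs, 111 CPM in 10K EVs and 139 CPM in 100K EVs. Its 2.8K libraries had 157, 828 and 947 CPM, so that replicate 1 lay near the 100K level. NEAT1 was lower than in 2.8K EVs in both 10K EVs (log2 fold change -2.55, adjusted p = 0.00282 by edgeR) and 100K EVs (-2.24, adjusted p = 0.00147 by edgeR). KCNQ1OT1 averaged 66.8 CPM in 2.8K EVs, 10.4 CPM in 10K EVs and 18.5 CPM in 100K EVs, and was also lower in 10K EVs (-2.69, adjusted p = 0.000168 by edgeR) and 100K EVs (-1.87, adjusted p = 0.000755 by edgeR). MALAT1 averaged 3480 CPM in 2.8K EVs, 1393 CPM in 10K EVs and 2067 CPM in 100K EVs and did not pass in either (adjusted p of 0.0506 and 0.154 by edgeR). None of the 3 passed between 100K EVs and 10K EVs, where 13 members were lower. Within 2.8K EVs, replicate 1 was lowest for NEAT1 and for MALAT1 (1397, 4356 and 4688 CPM), though not for KCNQ1OT1. The SNORA sum was highest in that replicate (822, 488 and 292 CPM). With the mitochondrially encoded genes and the long noncoding entry lnc-ARF6-1 left out of the table, the count of members called between 100K EVs and 2.8K EVs was again 23. What part these RNAs have in the result was not tested.

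In sequence, the members looked like the annotated families. The terminal ACA box was found in 33 of 46 SNORA members (71.7%), against 111 of 147 annotated SNORA genes (75.5%). Box C was found in 27 of 31 SNORD members (87.1%), against 192 of 278 annotated SNORD genes (69.1%), and box D in 30 of 31 (96.8%), against 262 of 278 (94.2%). Searches read the transcript strand only, and no match says only that these letters are not in the window. Lengths had a median of 134.5 bases in SNORA (123 to 272), 135 in SCARNA (125 to 265) and 92 in SNORD (72 to 791). In 19 members the closest annotated snoRNA or scaRNA was at least 95% identical, and their single values are uncertain.

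Detection differed with the place of the gene in the annotation, and the mix of classes differed with place too. Of all 992 annotated genes, 795 had 0 counts in all 10 libraries. Of the 212 that overlap an exon of another gene on the same strand, 199 (93.9%) were at 0, against 243 of 406 (59.9%) in introns and 353 of 374 (94.4%) outside genes. Of those outside, 349 had no SNORA, SNORD or SCARNA name, and 334 of these were at 0. Genes without such a name were mostly at 0 in introns as well, 125 of 152. Among annotated SNORA genes, 56 of 60 exonic ones and 16 of 76 intronic ones were at 0. The sources used here do not give the counting rule for reads on overlapping features, so a 0 at an exonic gene limits only what was counted there. Of the members, 3 are exonic: SNORA20, SNORA2C and SNORD89.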

How the data were processed

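Total RNA was sequenced from 9 PC3 vesicle libraries and 1 cell library. Per the labels' protocols, Trizol was used for extraction and a stranded SMARTer kit for low-input total RNA for the libraries. The submitters' processing notes name featureCounts 1.6.3, bcl2fastq 2.19.1.403, STAR 2.6.1d and cutadapt 2.7, and the build GRCh38. The deposited counts are whole numbers per gene and were not normalized by the authors. The sources used here do not give the counting annotation, its strand setting or the handling of multiply mapping reads, so genes with near-identical copies and overlapping or antisense genes are uncertain.

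Groups and replicate numbers come from the sample titles. Gene types, coordinates, lengths and transcript sequences come from GENCODE release 29, matched by identifier for 45574 of 94946 entries. Hosts are annotated genes that contain a member on the same strand, and identity is over a pairwise alignment (Biopython 1.88). For the tests, genes were filtered with filterByExpr by group (minimum count 10) and scaled with TMM, and edgeR 4.0.16 under R 4.3.3 gave robust quasi-likelihood F-tests. Adjustment followed Benjamini and Hochberg across every gene in the fit, and calls were made at 0.05. Pellets were compared on the 9 vesicle libraries (15525 genes, with 6 residual and 11.7 prior degrees of freedom). Comparisons with cells used all 10 libraries (22370 genes), where the prior degrees of freedom were infinite, so that all genes share 1 trend. The fits were tested on simulated counts. Detection at equal depth is the hypergeometric expectation. Floors are 3 counts. Both floors and 95% intervals hold for counting error alone, since reads without molecular identifiers are not independent molecules. DESeq2 1.42.0 and the other alternatives are given in the closing section. Figures were drawn with matplotlib 3.10.9.

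The members, the 26 protein genes and the rule for named members were chosen with earlier results of these data known. The rule takes the 4 members per class with the highest CPM per kilobase in vesicles and, among those that passed, up to 8 with the highest and 8 with the lowest fold change per pellet comparison (4 and 4 against cells), which gave 20 members, with their hosts. Libraries with the same number deviated together weakly at most (correlations of -0.00903 to 0.0494 over 9 pairs, mostly positive). Pairs with different numbers had -0.0351 to 0.0309. No label says that equal numbers are pairs, so the main fit did not treat them as such, and a weak sharing is not excluded. All pairs of libraries within a pellet differed by more than sampling noise. Some marker and host genes and some member sequences are not reported here.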

Additional observations from a re-analysis of the deposited data

How the results depend on the processing

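The counts of all members called kept within 1.5 times of the reported ones under most alternatives. The exceptions are given below, and the cause was not tested. No fold change of a named member that passed changed sign. Among the classes, DESeq2 called 25 SNORA members between 100K and 2.8K EVs where edgeR called 16, and leaving out 1 library gave 10 to 18. Over the 6 comparisons, 15 of 96 recomputed counts of SNORA, 9 of SNORD and 8 of SCARNA members called moved by more than 1.5 times. Of 96 recomputed medians of the tested members, 10 moved by more than the spread between replicate libraries (SD of their medians). Between 100K and 2.8K EVs, DESeq2 called 35 members where edgeR called 23, and leaving out 1 library gave 15 to 25. Between 10K and 2.8K EVs (4 members) the bias-adjusted quasi-likelihood fit, added after the data had been seen, gave 10, and leaving out 1 library 2 to 5. Between 100K and 10K EVs (14 members) that fit gave 6, and leaving out 1 library 8 to 14. Against cells, the bias-adjusted fit gave 7 for 2.8K EVs (2 members) and 6 for 100K EVs (10 members), a fit of only the libraries compared gave 16 for 100K EVs, and leaving out 1 library gave 2 to 4 for 2.8K EVs. Raising the member threshold to a count sum of 100 or lowering it to 20 left all 6 counts as they were. The raised threshold could not change them, since the lowest sum of a called member was 298 (SNORA72). Neither change tests the calls, because adjustment ran over all genes whatever the member list.

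Of the 26 protein genes, 1 was called between 10K and 2.8K EVs, and 2 with DESeq2 and 2 with the replicate block. For 100K against 10K EVs (6 genes) leaving out 1 library gave 2 to 7. For 2.8K EVs against cells (0 genes) RLE size factors, no filter on low counts, and leaving out mitochondrially encoded genes and lnc-ARF6-1 gave 1 each, and leaving out 1 library 0 to 1. For 10K EVs against cells (2 genes) the bias-adjusted fit gave 1, and leaving out 1 library 1 to 2. Of the host genes, 12 were called between 10K and 2.8K EVs, 6 with only the libraries compared and 4 to 12 without 1 library. For 2.8K EVs against cells (2 hosts) RLE size factors, no filter, and leaving out mitochondrially encoded genes and lnc-ARF6-1 gave 4 each, DESeq2 gave 6, and leaving out 1 library 2 to 5. With mitochondrially encoded genes and lnc-ARF6-1 out of the total, the share in the cell library was 0.0163% for SNORA and 0.0374% for all members.

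With the replicate number as a block, 23 members were called between 100K and 2.8K EVs, 5 between 10K and 2.8K EVs and 12 between 100K and 10K EVs. Same-numbered libraries deviated together weakly at most and no label calls them pairs, so this block is no pairing by design. No paired analysis was possible for the cells because that library has no number. At 5424964 to 8083438 counts, a level in 100K EVs under about 3 counts per library could not be seen, and 30 members were too low to be tested between pellets.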
